A study of Mus musculus with 10 samples.

Results

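A set of 10 genes of growth arrest and of the response to the tumour suppressor p53 was followed in mouse secondary palate at E14.5, when the palatal shelves fuse. The set held the CDK inhibitors Cdkn1a, Cdkn1b, Cdkn1c, Cdkn2a, Cdkn2b and Cdkn2c, and the p53 gene Trp53 with its response genes Mdm2, Ccng1 and Gadd45a. Every probe set that the array annotation gives to exactly 1 of these symbols was kept, which left 15 of 45101 probe sets and 9 of the 10 genes. Trp53 was not analysed here. The mutant group had 5 arrays from embryos of genotype Tgfbr2fl/fl;Wnt1-Cre, in which the neural crest loses Tgfbr2, a receptor that TGF-beta signals through. Controls were 5 arrays of Tgfbr2fl/fl embryos, which carry the same floxed alleles without Cre and are titled wildtype. Both groups are labelled strain C57B6, with sex undetermined. Wnt1-Cre acts in the neural crest, so the crest-derived mesenchyme of the palate is recombined, while epithelium, skeletal muscle and endothelium, which have other origins, keep the receptor. The labels number the samples without saying that each came from its own embryo, so each p-value reflects how these samples vary and no more. The comparison asks whether genes that hold back the cell cycle depend on TGF-beta reception in the crest-derived palate.

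CDK inhibitors stop cells from passing from G1 into S phase. The CIP/KIP proteins p21 (Cdkn1a), p27 (Cdkn1b) and p57 (Cdkn1c) bind complexes of cyclins with their kinases, and the INK4 proteins p16 (Cdkn2a), p15 (Cdkn2b) and p18 (Cdkn2c) bind the kinases CDK4 and CDK6. In many epithelial and other cells TGF-beta arrests growth by inducing Cdkn2b and Cdkn1a through SMAD proteins. The protein p53 induces Cdkn1a, Mdm2, Ccng1 and Gadd45a after DNA damage and other stress, and Mdm2 in turn marks p53 for breakdown. Mice without Cdkn1c have a cleft palate, so this gene has a known place in the tissue.

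Cdkn1a and Cdkn2c were the members whose differences passed the test across genes, so the DNA before their start sites is shown first. The sequences are from RefSeq on build GRCm38.p6, whose promoter table held 11 windows for 8 of the 9 measured genes. Each covers the 250 bases before a start site and is written 5′ to 3′ along the gene. In the first, the capitals mark a match to the p53 response element. In the others they mark GGGCGG, the core letters of a site for the factor Sp1, which works with SMADs at the Cdkn1a promoter.
Cdkn1a, upstream start, chr17:29090729-29090978, plus strand: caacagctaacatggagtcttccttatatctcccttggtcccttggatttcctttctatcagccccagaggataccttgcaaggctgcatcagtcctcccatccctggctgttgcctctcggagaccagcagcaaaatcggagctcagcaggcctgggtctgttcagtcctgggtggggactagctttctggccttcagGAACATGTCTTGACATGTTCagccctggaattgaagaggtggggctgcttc
Cdkn1a, downstream start, chr17:29093519-29093768, plus strand: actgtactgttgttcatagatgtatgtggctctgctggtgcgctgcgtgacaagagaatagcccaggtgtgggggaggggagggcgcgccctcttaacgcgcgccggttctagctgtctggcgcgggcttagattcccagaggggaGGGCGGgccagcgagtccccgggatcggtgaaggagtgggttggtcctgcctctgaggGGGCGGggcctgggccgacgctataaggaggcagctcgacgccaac
Cdkn2c, upstream start, chr4:109666757-109667006, minus strand: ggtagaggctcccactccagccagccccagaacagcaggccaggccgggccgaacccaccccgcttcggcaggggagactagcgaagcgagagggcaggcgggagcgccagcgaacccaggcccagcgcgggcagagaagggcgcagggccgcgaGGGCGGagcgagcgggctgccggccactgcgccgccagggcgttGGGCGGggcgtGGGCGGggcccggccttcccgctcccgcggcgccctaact

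The p53 response element was searched as a pair of adjoining copies of its decamer with at most 2 mismatches, none of them in the core of a copy, and its consensus reads the same on both strands. It was found in 44 of 32851 windows of this length (0.134%), and among the 11 windows of the measured genes only in that of the upstream Cdkn1a start. That match had 1 mismatch and lay 51 to 32 bases before the start. GGGCGG, searched on both strands, was in 6 of the 11 windows and in 32.7% of all windows. It had 2 matches before the downstream Cdkn1a start and 3 before the upstream Cdkn2c start. The downstream Cdkn2c start, whose window is not shown, had none. CAGAC, the letters of a SMAD box, was also searched on both strands. It was in 6 of the 11 windows, both Cdkn1a windows among them, and in 42.2% of all. TTTNNCGC (N is any base) and TATAA were searched as well. They were in 3 and 2 of the 11 windows and in 4.28% and 22.8% of all. Sequence outside the windows, such as introns, was not searched. These matches describe letters and do not show that a factor binds there.

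Array values were log2 expression between 2.2 and 14.3, with array medians of 6.4 or 6.5, and were given to 1 decimal. The number of arrays limits the precision. Control replicate 1 stood apart, with correlations to the other arrays of 0.978 to 0.982, against 0.990 to 0.996 among the other 9. It was the highest or the lowest control array for 11 of the 15 probe sets, so the members' differences are also given without it. The palate mesenchyme markers Prrx1, Pdgfra and Shox2 had mean log2 values of 12.36, 11.78 and 11.54 in mutant and 12.24, 11.68 and 11.30 in control arrays, so mesenchyme of the labelled tissue was present. Of all 10 mesenchyme markers, 6 were higher in sign in mutants and 4 lower. The largest decrease was that of Msx1, at 8.46 in mutant and 9.30 in control arrays (limma adjusted p = 0.147 over genes). These 3 and Msx1 were chosen after their values were seen.

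Few of the members differed between genotypes. In limma across all 45101 probe sets, none of the 15 probe sets passed an adjusted p of 0.05, where 3.25% of all probe sets did. At an unadjusted p under 0.05 there were 5 of 15, against 19.6% of all probe sets. In limma across 18194 genes, each represented by its brightest probe set, Cdkn1a rose and Cdkn2c fell, and the other 7 members were not called. That is 2 of 9 genes, against 8.26% of all genes called, of which 2.9% were higher and 5.36% lower. Without control replicate 1, 4 of the 15 probe sets were called, against 4.41% of all, and 3 of the 9 genes, against 9.88%. Both calls lay close to the threshold, as the plot of adjusted p by omitted array shows.

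**Figure D1:**
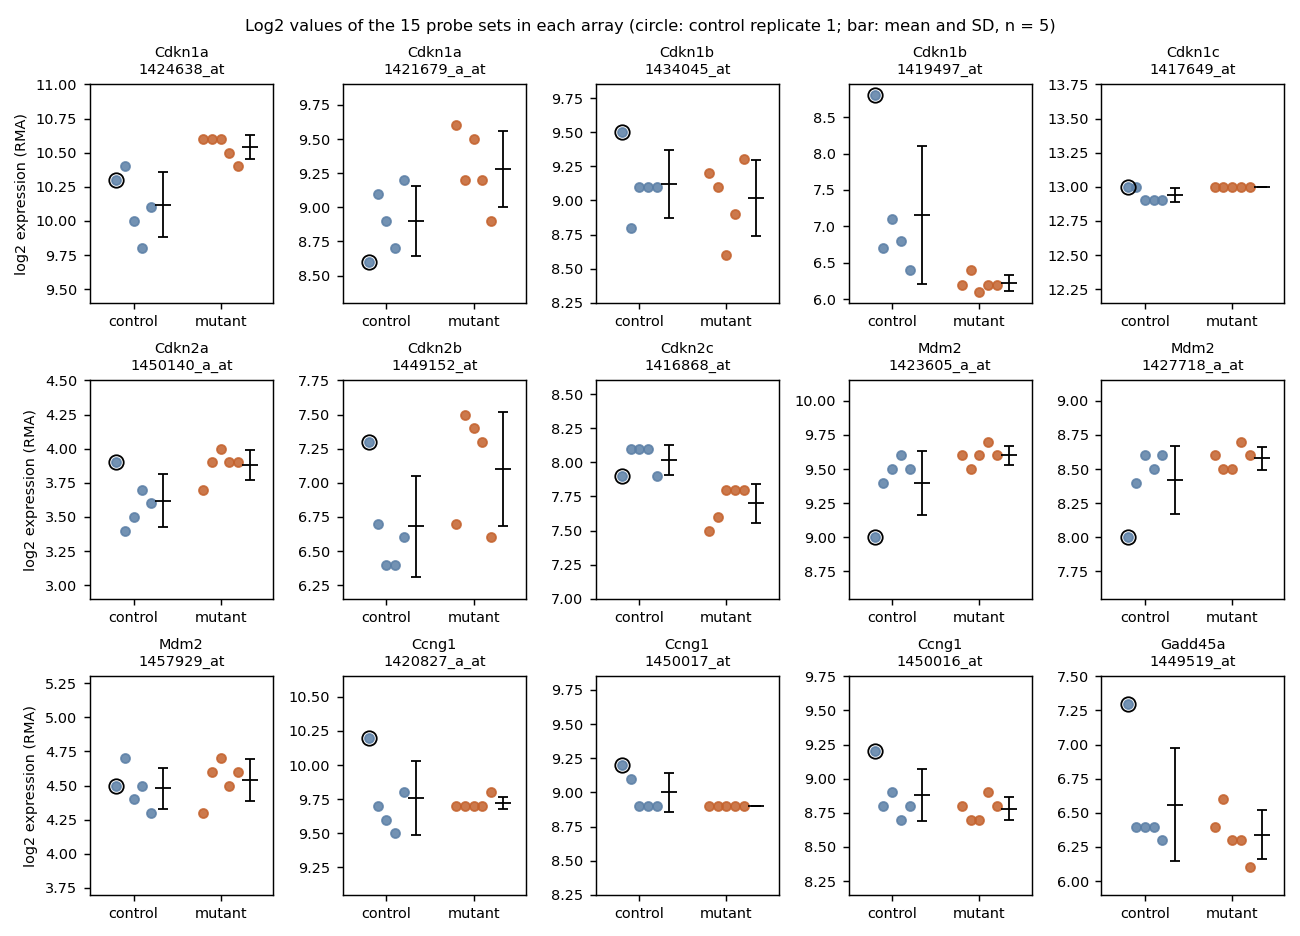
Log2 expression (vertical axes, RMA values) of the 15 probe sets in the 5 control and 5 mutant arrays, 1 dot per array, with the mean and SD (n = 5) beside each group and control replicate 1 circled. The groups do not overlap for Cdkn2c, and control replicate 1 lies apart for the dim Cdkn1b probe set (8.8) and for Gadd45a (7.3).

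Cdkn1a, encoding p21, was higher in mutant palate on both of its probe sets. The brighter one (1424638_at) read 10.6, 10.6, 10.6, 10.5 and 10.4 in mutant replicates 1 to 5 and 10.3, 10.4, 10, 9.8 and 10.1 in the controls. The groups met at 10.4, so the lowest mutant array equalled the highest control. The means were 10.54 ± 0.09 in mutant and 10.12 ± 0.24 in control arrays (SD, n = 5 each), a 1.34-fold difference (log2 0.42, 95% confidence interval 0.19 to 0.65). The adjusted p was 0.0317 over all genes and 0.0569 over all probe sets. An exact two-sided permutation test of this probe set gave an unadjusted p of 0.0159, where 5 against 5 arrays allow 0.00794 at the smallest.

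The other Cdkn1a probe set (1421679_a_at) read 9.6, 9.2, 9.5, 9.2 and 8.9 in mutants and 8.6, 9.1, 8.9, 8.7 and 9.2 in controls. These groups overlapped from 8.9 to 9.2. The difference was 0.38 (interval 0.05 to 0.71, adjusted p = 0.189 over all probe sets), close in size to that of the brighter probe set but with a wider spread. Without control replicate 1 the brighter probe set differed by 0.47 (adjusted p = 0.0225 over genes and 0.0360 over probe sets). The dimmer then differed by 0.31 (interval -0.02 to 0.63, limma adjusted p = 0.254 over probe sets).

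Cdkn1b, encoding p27, gave different pictures on its probe sets. The brighter one (1434045_at) read 9.2, 9.1, 8.6, 8.9 and 9.3 in mutants and 9.5, 8.8, 9.1, 9.1 and 9.1 in controls, and the difference was -0.10 (interval -0.42 to 0.22, adjusted p = 0.745), and -0.005 without control replicate 1 (0.986). The dimmer one (1419497_at) read 6.2, 6.4, 6.1, 6.2 and 6.2 in mutants and 8.8, 6.7, 7.1, 6.8 and 6.4 in controls. Every mutant array lay at or below the lowest control, and control replicate 1 lay far above the rest. The difference was -0.94 (interval -1.73 to -0.15, adjusted p = 0.179), and -0.53 without control replicate 1 (interval -0.80 to -0.26, adjusted p = 0.0354). The transcript position of each probe set was not used here, so it is not settled which of them stands for Cdkn1b.

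Cdkn1c, encoding p57 and expressed from the maternal allele, read 13.0 in all 5 mutant arrays. The controls read 13.0, 13.0, 12.9, 12.9 and 12.9. Its probe set was brighter than 99.5% of all probe sets. The difference was 0.06 (interval -0.05 to 0.17, adjusted p = 0.550 over probe sets), so the interval reached from 0.964-fold to 1.13-fold. It was 0.08 without control replicate 1 (adjusted p = 0.416). It was the narrowest interval among the 15 probe sets.

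Of the INK4 genes, Cdkn2c, encoding p18, was lower in every mutant array. It read 7.5, 7.6, 7.8, 7.8 and 7.8 in mutants and 7.9, 8.1, 8.1, 8.1 and 7.9 in controls. All mutant values lay below all control values, which was true of 1 of the 15 probe sets and of 3.41% of all probe sets (4.86% for either direction). The means were 7.70 ± 0.14 and 8.02 ± 0.11 (SD, n = 5 each), a 1.25-fold decrease (log2 -0.32, interval -0.50 to -0.14). The adjusted p was 0.0325 over all genes and 0.0589 over all probe sets, and the exact two-sided permutation p was the smallest possible, 0.00794 (unadjusted; the exact test was run on all 15 probe sets). The difference was -0.35 without control replicate 1 (adjusted p = 0.0241 over genes and 0.0390 over probe sets).

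Cdkn2b, encoding p15, was split among the mutants. It read 6.7, 7.5, 7.4, 7.3 and 6.6 in mutants and 7.3, 6.7, 6.4, 6.4 and 6.6 in controls. Mutant replicates 2, 3 and 4 and control replicate 1 were high, and the groups overlapped. The difference was 0.42 (interval -0.05 to 0.89, adjusted p = 0.310 over probe sets), and 0.58 without control replicate 1 (interval 0.17 to 0.98, adjusted p = 0.104). No decrease of this TGF-beta target was measured in the whole palate, whose epithelium keeps the receptor. With all arrays and no covariate, the interval reached down to -0.05 on the log2 scale. With the epithelial covariate described below, the difference was 0.09 (limma adjusted p = 0.739 over genes). With the Y-linked gene Eif2s3y as a covariate it was 0.21 (0.608).

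Cdkn2a, which encodes p16 and, in another reading frame, the p53 activator p19Arf, was near the low end of the arrays. It read 3.7, 3.9, 4.0, 3.9 and 3.9 in mutants and 3.9, 3.4, 3.5, 3.7 and 3.6 in controls, and only 11.6% of probe sets were dimmer. The difference was 0.26 (interval 0.05 to 0.47, adjusted p = 0.162 over probe sets and 0.108 over genes). Without control replicate 1 it was 0.33 (adjusted p = 0.0413 over probe sets and 0.0257 over genes). At this level a signal cannot be told from background, since the deposited table gives no detection call.

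**Figure D2:**
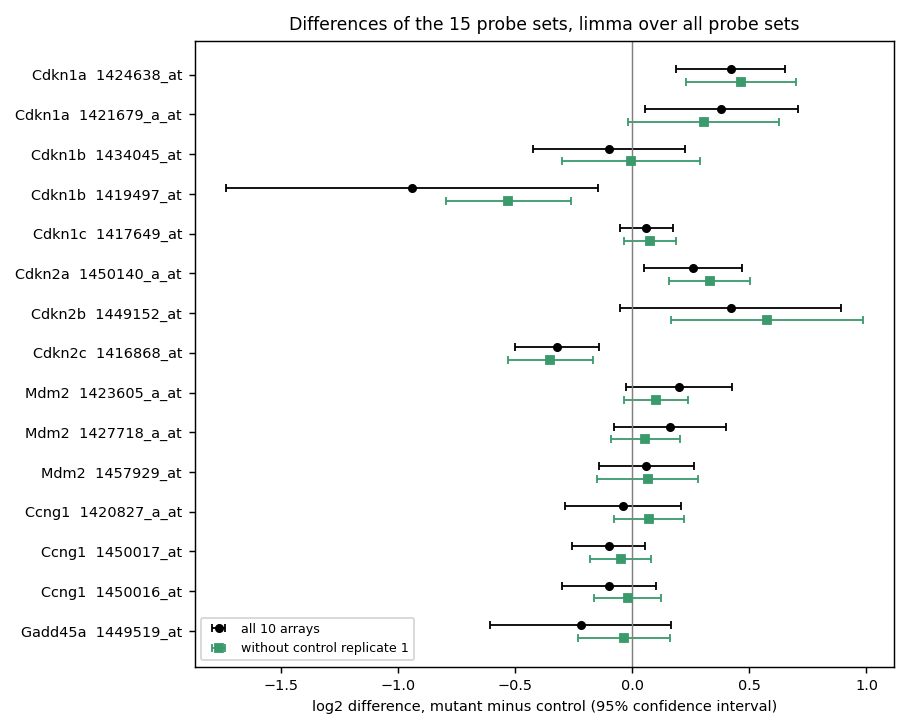
Log2 difference between mutant and control arrays (horizontal axis) with its 95% confidence interval for the 15 probe sets, with all 10 arrays (black circles) and without control replicate 1 (green squares). The Cdkn1a differences lie above 0 and that of Cdkn2c below 0 in both fits. Without control replicate 1 the interval of the dimmer Cdkn1a probe set reaches below 0 (-0.02 to 0.63), and that of the dim Cdkn1b probe set narrows.

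Among the p53 response genes of the set, Cdkn1a was called over all genes, as given above. The others, Mdm2, Ccng1 and Gadd45a, showed no difference that passed the test, with or without control replicate 1. Mdm2, the ligase that holds p53 down and is itself induced by it, read 9.6, 9.5, 9.6, 9.7 and 9.6 in mutants and 9.0, 9.4, 9.5, 9.6 and 9.5 in controls on its brightest probe set (1423605_a_at). The groups overlapped and control replicate 1 was the lowest. The difference was 0.20 (interval -0.03 to 0.43, adjusted p = 0.315), and 0.10 without that array (adjusted p = 0.384). Its other probe sets gave 0.16 (1427718_a_at, adjusted p = 0.449) and 0.06 (1457929_at, 0.757). These were 0.06 and 0.07 without control replicate 1 (0.677 and 0.750).

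Ccng1, encoding the p53 target cyclin G1, read 9.7, 9.7, 9.7, 9.7 and 9.8 in mutants and 10.2, 9.7, 9.6, 9.5 and 9.8 in controls on its brightest probe set (1420827_a_at). The mutants lay within the range of the controls. The difference was -0.04 (interval -0.29 to 0.21, adjusted p = 0.880), and 0.07 without control replicate 1 (adjusted p = 0.593). The other probe sets each gave -0.10, with adjusted p of 0.466 (1450017_at) and 0.577 (1450016_at), and without control replicate 1 they gave -0.05 and -0.02 (0.667 and 0.892).

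Gadd45a, a p53 target that takes part in DNA repair and in stress kinase signalling, read 6.4, 6.6, 6.3, 6.3 and 6.1 in mutants and 7.3, 6.4, 6.4, 6.4 and 6.3 in controls. Control replicate 1 alone was high. The difference was -0.22 (interval -0.61 to 0.17, adjusted p = 0.525), and -0.04 without it (interval -0.23 to 0.16, adjusted p = 0.860).

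The other genes of these pathways were read from lists, by their counts in the fit over all genes, where the median difference of all genes was 0. Of 28 other p53 targets measured, none rose and 1 fell, 27 were not called, and 7 had an unadjusted p under 0.05 in limma, where 25.2% of all genes did. Their median difference was 0. The decrease was that of Eda2r, a receptor of the tumour necrosis factor family, at 4.10 ± 0.07 in mutant and 4.76 ± 0.36 in control arrays (-0.66, SE 0.14, adjusted p = 0.0191), a low level. It differed by -0.50 without control replicate 1 (adjusted p = 0.00178). Bbc3, the cell death gene that encodes PUMA, and Sesn1, a stress gene, each differed by 0.00, with intervals of -0.22 to 0.22 and -0.16 to 0.16. The 4 Sesn1 probe sets ran from 0.00 to 0.26. Zmat3 and Phlda3, further p53 targets, differed by 0.02 and -0.06. The 28 differences ran from -0.66 to 0.40, with 13 positive and 13 negative. The highest was that of Pmaip1, at 0.40 (interval -0.22 to 1.02, limma adjusted p = 0.412). It was 0.665 without control replicate 1 (0.0649). Without control replicate 1, 2 of the targets rose, the death receptor gene Fas (0.50, adjusted p = 0.00513) and Perp, a gene of cell adhesion (0.23, 0.0497), where 3.8% of all genes rose. Bbc3, Sesn1, Zmat3, Phlda3, Pmaip1, Fas and Perp were chosen after their values were seen.

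Among 20 kinases, ligases and partners that control p53, none rose, 1 fell and 19 were not called, with a median of -0.02. That share is near the 5.36% of all genes that fell. The decrease was that of Chek1, the checkpoint kinase of replicating cells, by 0.38 (SE 0.08, adjusted p = 0.0203), although its 5 probe sets ran from -0.54 to 0.16. Of 9 relatives and partners of Gadd45a and Ccng1, 1 fell and 8 were not called. It was Map3k4, the stress kinase that Gadd45 proteins activate (-0.32, SE 0.06, adjusted p = 0.0103).

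**Figure D3:**
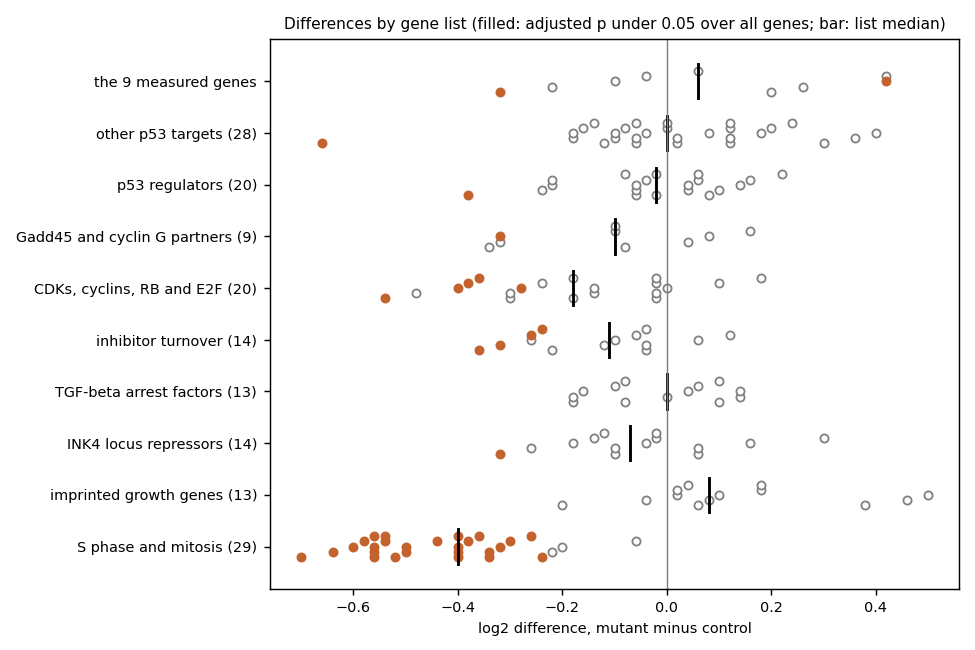
Log2 difference between mutant and control arrays (horizontal axis) for each gene of 10 lists, 1 dot per gene, filled where the adjusted p over all genes was under 0.05, with the list median as a bar and the number of genes measured in brackets. S phase and mitosis genes lie below 0 with a median of -0.40, while the other p53 targets and the TGF-beta arrest factors have a median of 0. The list labelled INK4 locus repressors holds regulators of the locus, not all of them repressors.

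Of 20 kinases, cyclins, pocket proteins and E2F factors that the inhibitors act through, none rose, 5 fell and 15 were not called, against 5.36% of all genes lower. There were 17 negative and 2 positive differences, with a median of -0.18. Ccna2, cyclin A2 of S phase, fell by 0.54 (SE 0.07, adjusted p = 0.00149). Rbl1, the pocket protein p107, fell by 0.36 (SE 0.05, adjusted p = 0.00286), although its 4 probe sets ran from -0.64 to 0.06. E2f1, which drives entry into S phase, fell by 0.38 (SE 0.09, adjusted p = 0.0232), although its 3 probe sets ran from -0.38 to -0.02 and their mean gave -0.19 (0.0760). The partners that INK4 proteins bind were not called, at -0.14 for Cdk4 (adjusted p = 0.146) and -0.02 for Cdk6 (0.903). Cdkn2d, the remaining INK4 gene, was not called either (-0.14, 0.198). Cdk4, Cdk6 and Cdkn2d were chosen after their values were seen.

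Genes linked to the ligases that break down the inhibitors gave 4 decreases and no increase among 14 measured, where 5.36% of all genes were lower and 2.9% higher. Pcna, the replication clamp that presents p21 to its ligase, fell by 0.36 (SE 0.06, adjusted p = 0.00810). Dtl, which recognises p21 for that ligase, fell by 0.32 (SE 0.07, adjusted p = 0.0206), but its 6 probe sets ran from -0.36 to 0.66 and their mean gave -0.07 (0.761). Cul4b, a scaffold of the ligase, fell by 0.26 (SE 0.06, adjusted p = 0.0309). The fourth decrease was that of Fbxw7, a ligase subunit not particular to the inhibitors (-0.24, adjusted p = 0.0396), named after its value was seen. Both Pcna and Dtl are also genes of replicating cells.

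SMADs and other factors of the TGF-beta growth arrest gave no call. Of 13 measured, none was called by limma, and their median was 0. An unadjusted p under 0.05 was reached by 4 of them, where 25.2% of all genes did. The smallest p was that of Zbtb17, the Cdkn2b regulator Miz1 (-0.16, interval -0.28 to -0.04, adjusted p = 0.102), whose other probe set gave 0.04. Of 14 regulators of the Cdkn2a and Cdkn2b locus, most of them repressors, 13 were not called and 1 fell, where 5.36% of all genes fell. It was the polycomb gene Cbx2 (-0.32, SE 0.07, adjusted p = 0.0206). Its other probe set gave -0.02, and the mean of both -0.17 (adjusted p = 0.139). Among 13 imprinted growth genes, which include neighbours of Cdkn1c, none was called by limma. Of them 4 had an unadjusted p under 0.05, against 25.2% of all genes. Dlk1, a paternally expressed Notch ligand relative, had the smallest p (0.38, adjusted p = 0.0818). Without control replicate 1, 2 of these rose, where 3.8% of all genes did. They were Slc22a18 and Meg3 (0.22 and 0.27, adjusted p = 0.0276 and 0.0195), both named after their values were seen.

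S phase and mitosis genes fell in 26 of 29 measured, with none higher and a median of -0.40, where 5.36% of all genes fell. Bub1b, Birc5 and Cenpa, genes of the mitotic checkpoint and of chromosome segregation, had the smallest p (-0.54, -0.56 and -0.58, adjusted p = 0.000879, 0.00103 and 0.00104). The 3 Cenpa probe sets ran from -0.58 to -0.08, and their mean gave -0.25 (adjusted p = 0.378). The median deviation of this list was -0.31 to -0.13 in mutant and 0.13 to 0.36 in control arrays. These ranges do not overlap, so a lower share of cycling cells and the genotype cannot be told apart in the values of Cdkn2c. In whole tissue, fewer cells of a type and less RNA per cell cannot be told apart either. The list was chosen with its decrease already known and is no independent evidence of it.

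Cdkn1a and Cdkn2c followed different genes across the arrays. The 3 genes most like Cdkn1a, by Pearson correlation over the 10 arrays among 9091 other genes of above-median brightness, were Cfap126, a gene of motile cilia (0.980), Ctsh, a protease gene (0.969), and Cldn7, a claudin of epithelial junctions (0.965). For Cdkn2c they were Prc1, which organises the mitotic spindle (0.962), Crlf3 (0.954) and Cdca7, a gene of the cell cycle (0.951). These correlations are descriptions over arrays that share the genotype difference.

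**Figure D4:**
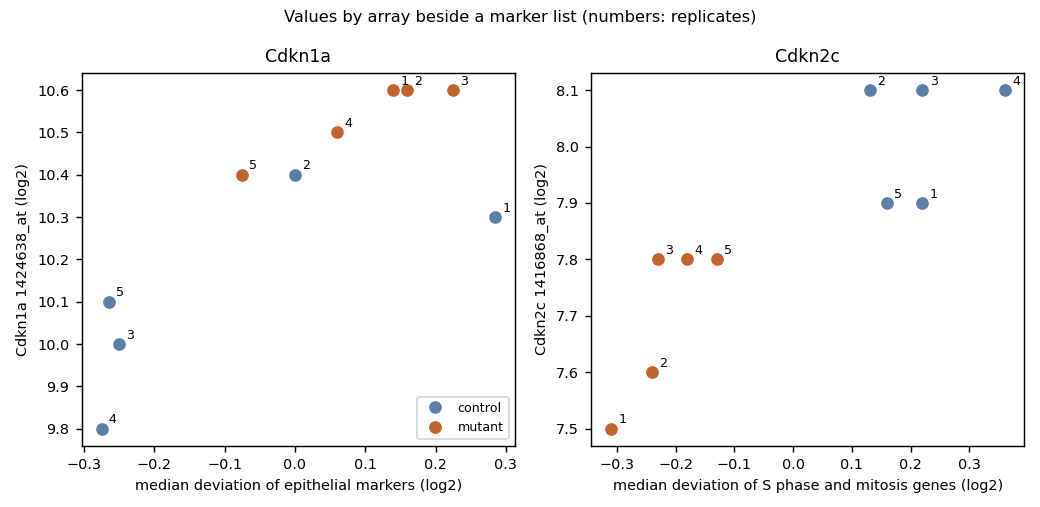
Log2 value of Cdkn1a (left) and Cdkn2c (right) in each array (vertical axes) against the median deviation of 12 epithelial markers and of 29 S phase and mitosis genes (horizontal axes, log2), with controls in blue, mutants in orange and replicate numbers beside the points. Control replicates 3, 4 and 5 are low for both Cdkn1a and the epithelial median, and the groups lie apart on both axes for Cdkn2c. Control replicate 1 has the highest epithelial median but lies below all mutants for Cdkn1a.

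Epithelial markers varied alongside Cdkn1a from array to array, except in control replicate 1. Their median deviation over 12 genes was 0.14, 0.16, 0.23, 0.06 and -0.08 in mutant replicates 1 to 5 and 0.29, 0.00, -0.25, -0.28 and -0.27 in the controls. Control replicate 1 had the highest of these medians, while its Cdkn1a value (10.3) lay below every mutant array. None of the 12 was called by limma with all arrays and 3 had an unadjusted p under 0.05, where 25.2% of all genes did. Without control replicate 1, 4 of the 12 were called higher, where 3.8% of all genes were. Of the 12 differences 10 were positive and 2 negative, with a median of 0.17. The smallest p was that of Krt8, a keratin of simple epithelia (0.56, adjusted p = 0.0638), followed by Krt18, its partner (0.48, 0.0644), and Cldn7, the claudin named above beside Cdkn1a (0.40, 0.0804). These 3 and the cadherin gene Cdh1 were called without control replicate 1, at 0.73, 0.61, 0.49 and 0.36 (adjusted p = 0.00492, 0.0113, 0.0315 and 0.0129). Epcam, another defining marker, differed by 0.02 with all arrays (0.949) and by 0.125 without control replicate 1 (0.595). Its 2 probe sets ran from 0.02 to 0.26 with all arrays. Krt18, Cdh1 and Epcam were chosen after their values were seen. With the epithelial median as a covariate, a fit chosen after the data were seen, the Cdkn1a difference went from 0.42 to 0.27 (adjusted p = 0.0544 over genes), and that of Cdkn2c from -0.32 to -0.27 (0.0585).

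In that fit Mdm2 and Gadd45a passed the test. Mdm2 differed by 0.36 (adjusted p = 0.00948 over genes) and Gadd45a by -0.51 (0.0134), in opposite directions, and 3186 of all genes were called. Control replicate 1 had the highest epithelial median and extreme values of both genes. Without that array and without the covariate their differences were 0.10 and -0.04, as given above.

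Muscle markers fell with the genotype. Of 16, 10 fell and none rose, with a median of -1.70, where 5.36% of all genes fell and 2.9% rose. The median deviation of the muscle markers was -1.51 to 0.62 in mutant and 0.26 to 1.82 in control arrays. With the muscle median as a covariate Cdkn1a differed by 0.39 (adjusted p = 0.321 over genes) and Cdkn2c by -0.34 (0.281), close to the values without it, in a fit that called 9 of all genes. With the Y-linked gene Eif2s3y as a covariate, for the undetermined sex, they differed by 0.43 (0.0706) and -0.29 (0.100). Myf5, Tnnt1 and Myh3, genes of muscle precursors and fibres, fell (log2 -1.86, -1.74 and -2.58, adjusted p = 0.00258, 0.0160 and 0.0270). Of 8 endothelial markers 2 fell, Cldn5 and Erg (-0.54 and -0.42, adjusted p = 0.0112 and 0.0298, the latter -0.27 and 0.0504 as the mean of its 2 probe sets), and of 10 mesenchyme markers 1 rose, Tbx22 (0.62, 0.0183). No marker of cartilage and bone (8), leukocytes (8), erythroid cells (7) or nerve and glia (6) was called by limma. In these lists 2, 1, 3 and 0 had an unadjusted p under 0.05, where 25.2% of all genes did. The smallest p in each was that of Ibsp, C1qa, Hba-x and Dcx, with adjusted p of 0.105, 0.0844, 0.0618 and 0.547. The part of these cell types in the differences of the CDK inhibitors was not tested.

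**Figure D5:**
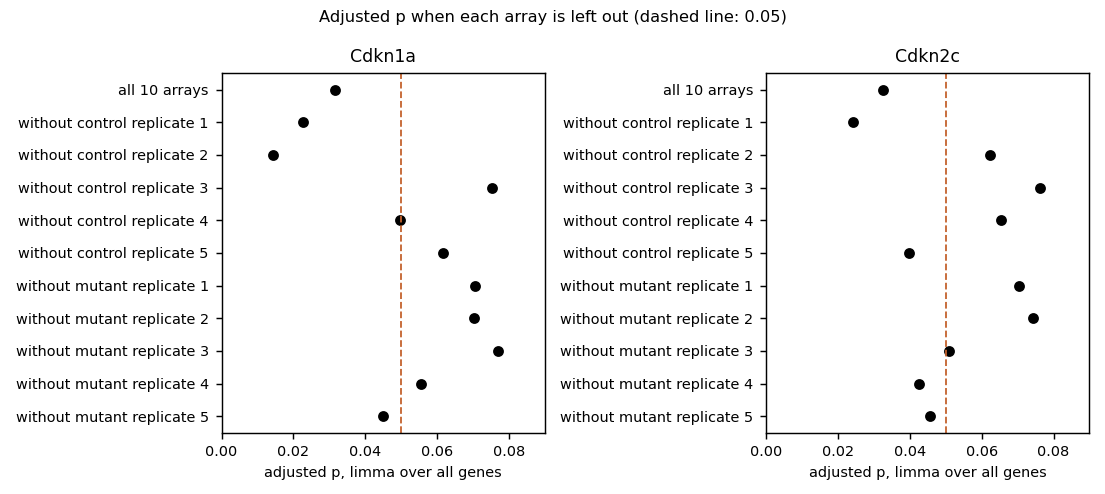
Adjusted p of Cdkn1a (left) and Cdkn2c (right) in limma over all genes (horizontal axes) with all 10 arrays and with each array left out in turn, with 0.05 as a dashed line. For each gene 6 of the 10 values lie above the line, from 0.0144 to 0.0770 for Cdkn1a and from 0.0241 to 0.0762 for Cdkn2c.

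The call of each gene was lost when any of 6 single arrays was left out, while its direction was kept. Each of these fits also had 1 array fewer. The part of any single array was not told apart from that of the smaller sample. The Cdkn1a call was lost without control replicate 3 or 5 (adjusted p = 0.0754 and 0.0616) and without mutant replicate 1, 2, 3 or 4 (0.0706, 0.0702, 0.0770 and 0.0555). Its difference ran from 0.34 to 0.49. The Cdkn2c call was lost without control replicate 2, 3 or 4 (0.0622, 0.0762 and 0.0654) and without mutant replicate 1, 2 or 3 (0.0704, 0.0743 and 0.0509). Its difference ran from -0.35 to -0.27.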

How the data were processed

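Gene expression was measured on an Affymetrix mouse array, 1 array per sample, with 5 mutant and 5 control samples. The deposited values are log2 expression that the authors obtained with RMA, per the submitters' processing notes. Scanner files were not used here. The table holds 45101 probe sets, of which 34958 carried 1 gene symbol, 932 several and 9211 none. Symbols were updated by Entrez ID from a table of RefSeq genes (GRCm38.p6), which held 34754 of the 34958.

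The mutant minus control difference was fitted by limma 3.58.1 under R 4.3.3, two-sided, with Benjamini-Hochberg adjustment over all 45101 probe sets, and again over 18194 genes, each by the brightest of its probe sets. A feature was called at an adjusted p under 0.05. No value filter or covariate was used. Any 2 arrays shared at most 26.8% of their values. All members are named, and from every other list the 3 called genes of smallest p at most, or 1 gene if none was called. Other names are marked where they appear. The members and lists were chosen with earlier results of these data known. Same-numbered samples did not deviate together (correlations of -0.10 to 0.11), so samples were not paired. Alternatives were each array left out, a replicate block, other normalization, variance models, filters and probe set summaries, and covariates for sex, muscle and, added later, epithelium.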

Additional observations from a re-analysis of the deposited data

Results flagged for a closer look

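Among 30 groups of 5 arrays (15 probe sets in each genotype), 2 held an array whose gap to its nearest neighbour exceeded Dixon's limit of 0.71 of the group's range. Chance gives about 1 such group in 20. For Gadd45a, control replicate 1 read 7.3 while the other controls read 6.3 to 6.4. For the Ccng1 probe set 1420827_a_at, mutant replicate 5 read 9.8 while the other mutants all read 9.7, a gap of a single rounding step.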

How the results depend on the processing

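Of 50 tested differences (the members' probe sets, the members over genes and the other named genes) under 20 alternatives, 852 of 979 values kept their direction and their side of the threshold, 89 lost a call, 30 gained one and 8 changed sign. The sign changes were all in uncalled genes: Cdkn1b (from -0.18 to 0.005 as arrays were left out, the latter without mutant replicate 3), the brightest Ccng1 probe set to 0.07 without control replicate 1 and to 0.055 (0.044 over genes) with array weights, and, with the muscle covariate, the Mdm2 probe set 1457929_at to -0.10 and Dcx to 0.33. Leaving out each array moved the count of called probe sets from 464 to 1988 (1468 with all arrays), of called genes from 643 to 1798 (1503), of called member probe sets from 0 to 4 (0), of called member genes from 0 to 3 (2) and of called genes in the other lists from 30 to 43 (39). The 4 member probe sets called without control replicate 1 were those of Cdkn1a, Cdkn1b, Cdkn2a and Cdkn2c given above, and the third member gene was Cdkn2a.

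The replicate block left 98 probe sets, 532 genes and 0 member genes called, with adjusted p = 0.0534 for Cdkn1a and 0.0608 for Cdkn2c. The muscle covariate left 2 probe sets, 9 genes, 0 member genes and 0 genes of the other lists. Eif2s3y left 911 probe sets, 1041 genes and 0 member genes. The epithelial covariate gave 6181 probe sets, 3186 genes and 4 member probe sets. Array weights gave 2901 probe sets and 3 member probe sets. The brighter 60% gave 1860 probe sets and 2 member probe sets, and the intensity trend gave 1551 and 1. Centring on array medians gave 1267 probe sets with 1 member probe set, and 1276 genes with 1 member gene. The cause of these changes was not tested. Rounding to 0.1 and 5 arrays per group limit small differences.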
